A study of Mus musculus with 8 samples.

Results

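BMEL cells are a line of mouse embryonic liver progenitors that can take 2 fates, and the comparison described here sets BMEL cells kept in a differentiation medium against untreated BMEL cells. The members are the 5 arrays whose titles carry the group names DIFF and NoRX, of 8 arrays in the series. The DIFF group holds 2 arrays and the NoRX group 3, and the other arrays of the series hold cells kept in medium conditioned by amniotic epithelial cells (CM). All cells are of 1 line, all RNA was total RNA labelled with Cy3, and all arrays lie on 1 slide. The labels spell out neither NoRX nor DIFF and give no composition, dose or time for a medium, so the comparison holds 2 groups that differ by an unspecified medium. The title of the DIFF arrays numbers them as replicates 1 and 2, while the source label numbers both as replicate 1. Whether replicates were separate cultures is not stated, so the p-values reflect array-to-array spread alone, part or all of which may be technical.

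Liver progenitor cells can give rise to hepatocytes and to the cholangiocytes that line bile ducts. Hepatocytes secrete most plasma proteins, among them albumin, apolipoproteins, clotting factors and acute phase proteins, and carry the urea cycle and the enzymes of drug metabolism. Their gene programme is held by a network of liver-enriched transcription factors that includes HNF4A, the FOXA proteins and the C/EBP proteins. Cholangiocytes and progenitors instead express Sox9, Epcam, osteopontin and the keratins 7 and 19. Glucocorticoids, which media for hepatocyte culture often contain, act through a nuclear receptor that binds DNA as a dimer and raises the transcription of genes such as Fkbp5, Tsc22d3 and Per1. Growth factors of the EGF family act through the kinase ERK, whose output includes feedback inhibitors of the Dusp and Spry families.

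Each value below is a log2 processed signal relative to the 75th percentile of its own array, so that a difference of 1 is a doubling. Differences are DIFF minus NoRX and carry the standard error of the fit. The adjusted p-values come from limma, fitted over all genes, and a gene is said to have risen or fallen only where its adjusted p was under 0.05. Some genes were well above background in 1 group (each of its arrays) and on no array of the other. Their change is given as a lower bound on the fold. A gene called below background here was only not well above background, and its signal was not shown to lie under it. In bulk RNA of this kind, fewer cells of a type and less RNA per cell cannot be told apart.

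Of 59305 spots that are no controls, 51.2% to 51.5% were well above background on the NoRX arrays, 53.5% on DIFF replicate 1 and 46.4% on DIFF replicate 2. DIFF replicate 2 carries a bright patch in its first 30 rows of spots. In those rows 940 of 4411 spots (21.3%) differed between the DIFF arrays by over 4-fold, against 1.28% elsewhere. The 939 probes concerned were left out, which removed 191 genes that had no other probe. Among the genes just inside and just outside that limit, Aldh2 was kept with a DIFF replicate 2 minus replicate 1 difference of 1.94, and Tmem268 was left out with 2.01. The patch also raised the 75th percentile of its array by 0.261, and the percentile was therefore taken outside those rows. The median difference between the DIFF arrays was then 2e-04, their correlation across genes was 0.995, and that between NoRX arrays was 0.9933 to 0.994. The share of discordant spots remained raised for some distance beyond those rows, and 55 tested genes still differed by over 4-fold between the DIFF arrays, 8 of them called. Of the genes described below, Hsd11b2 belongs to those 8. Tested genes whose probe was kept in rows 1 to 30 number 1091, among them Sult1a1, Trim29, Fgb, Afp, Sox9, Lypd3 and Prex1. The DIFF arrays of such probes differ by at most 4-fold because of the rule. The difference (replicate 2 minus replicate 1) was 1.11 for Lypd3 and -0.74 for Prex1.

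**Figure D1:**
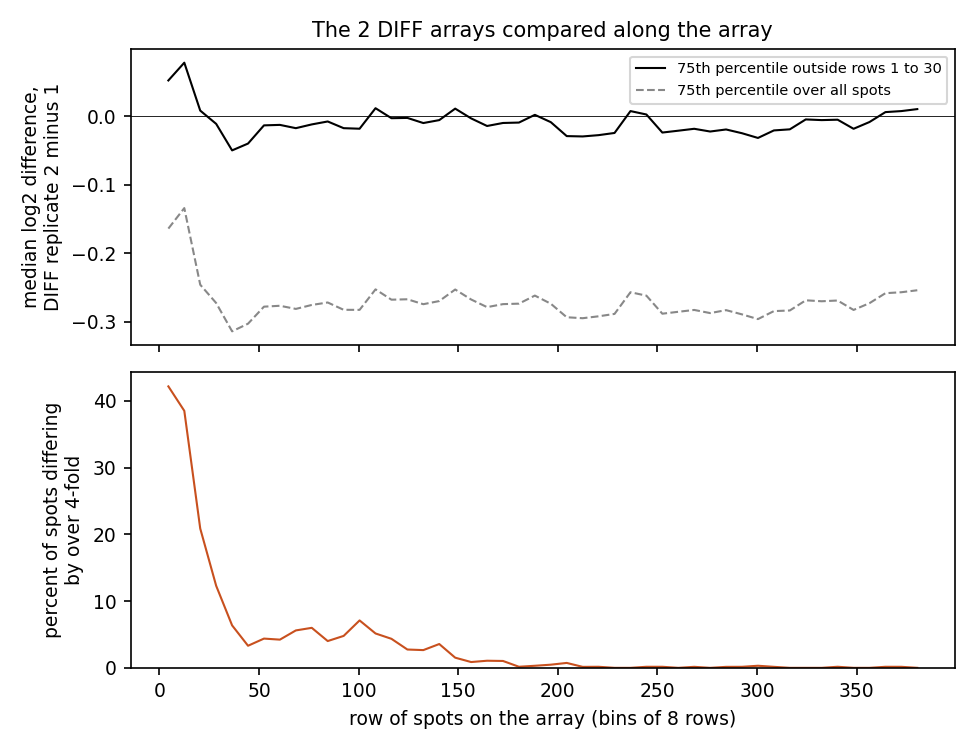
The DIFF arrays compared along the array in bins of 8 rows of spots (x axis). The upper panel plots the median log2 difference of replicate 2 minus replicate 1 under both ways of taking the 75th percentile. The lower panel plots the percent of spots that differ by over 4-fold, which is 42.2 in the first bin and near 0 in the last. Both panels hold only spots well above background on at least 1 DIFF array. Their shares are therefore not comparable with those over all spots in the text.

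The comparison asks what RNA changes accompany the differentiation medium. Of 20660 genes with a matched probe, 13853 were tested, and 8143 of them (58.8%) passed the test. In DIFF, 4332 genes (31.3% of those tested) were higher and 3811 (27.5%) lower. Most of these differences were small, since 5266 called genes differed by under 1.5-fold. At least 2-fold higher were 672 genes (4.85%) and at least 2-fold lower 935 (6.75%), while 148 genes rose and 119 fell by at least 8-fold. The NoRX and DIFF arrays did not overlap for 10067 genes (72.7%). A further limit is the place on the slide: all NoRX arrays lie in its row 1 and both DIFF arrays in its row 2. The CM arrays span both rows, and with slide row as a block 2838 genes were higher and 2732 lower. The split depends on the scaling: 53.2% of called genes were higher as reported, against 71.8% with arrays centred on their medians (median of all genes 0.189, against 0.02 as reported), 42.9% with normexp background correction and 29.4% with the percentile over all spots (median of all genes -0.11). Small differences are therefore described below by counts, with the background shares of 31.3% and 27.5% as the standard, and single genes mainly where they differ by more. The counts of a list are also given under median centring, normexp and the percentile over all spots (the all-spot percentile) where these moved one of them by over 1.5 times.

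**Figure D2:**
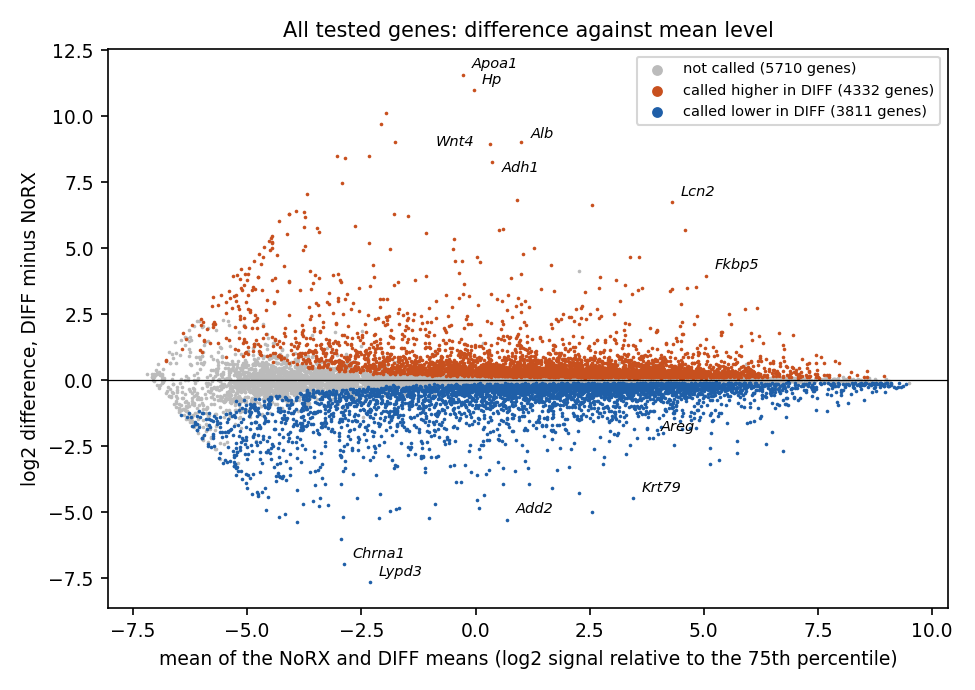
Each point is 1 of 13853 tested genes, with the mean of the NoRX and DIFF means on the x axis and the difference, DIFF minus NoRX, on the y axis (both log2). Of the tested genes 39 lack a value on some array of the series, and those that lack a NoRX or DIFF value are not drawn. The 4332 genes called higher reach to 11.57 (Apoa1) and the 3811 called lower to -7.66 (Lypd3), and most called genes lie close to 0.

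Plasma proteins of the liver were among the genes with the highest differences in DIFF. Of 21 tested genes for plasma carrier proteins and related secreted proteins, 17 rose, 16 of them at least 2-fold, and none fell, with a median difference of 3.26 over the 21 against 0.02 over all genes. Albumin, the most abundant plasma protein, read -3.05, -3.43 and -4.05 on the NoRX arrays and 5.54 and 5.45 on the DIFF arrays. The groups do not overlap, and the NoRX arrays are the more spread out. Alb thus rose 513-fold (9.0 ± 0.24, adjusted p = 8.15e-10), the highest difference of any gene measured on all 5 arrays. Transthyretin, which carries thyroid hormone and retinol-binding protein, read 1.38, 1.16 and 1.23 in NoRX and 5.96 and 5.87 in DIFF, a rise of 25.2-fold (4.66 ± 0.14, adjusted p = 1.9e-09). Ttr was therefore well above background without the medium, as was Rbp4, the retinol carrier itself, which rose 2.44-fold (1.29 ± 0.06, adjusted p = 2.45e-08).

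Other carriers were below background in untreated cells and bright in DIFF. Haptoglobin, which binds free haemoglobin, read 5.48 and 5.43 in DIFF and rose at least 1464-fold (Hp, adjusted p = 7.82e-11). Ahsg, the fetuin that binds calcium phosphate, read 2.82 and 2.71 and rose at least 263-fold (adjusted p = 9.66e-11). Itih4 of the inter-alpha-inhibitor family rose at least 21.2-fold, and the orosomucoid Orm1 at least 9.5-fold. Azgp1, a lipid-mobilising glycoprotein, was well above background on 1 of 3 NoRX arrays and rose by 6.31 ± 0.17. Gc, the vitamin D carrier, was 1 of the 4 tested members that were not called: it read 2.72, 2.47 and 2.61 in NoRX and 2.72 and 2.68 in DIFF, so that the groups overlap (0.10 ± 0.13, adjusted p = 0.515). The other called members rose by between 0.64 (Selenop) and 4.74 (Orm2).

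Apolipoproteins, the protein part of lipoprotein particles, were divided. Of 18 tested genes for apolipoproteins and lipoprotein handling, 9 rose and 4 fell (50% and 22.2%, against 31.3% and 27.5% of all tested genes). Higher and lower were 9 and 2 with median centring, 6 and 1 with normexp, 4 and 3 with the all-spot percentile and 7 and 2 with slide row as a block. Apoa1, the main protein of high density lipoprotein, was below background throughout NoRX and read 5.61 and 5.43 in DIFF, a rise of at least 1771-fold (adjusted p = 1.67e-10), which was the highest bound of all genes. Apoa4 rose at least 23.4-fold (adjusted p = 5.69e-07). Apoc3, an inhibitor of lipoprotein lipase, read -4.79, -4.32 and -4.71 in NoRX, where it was well above background on 1 array, and 1.64 and 1.62 in DIFF (6.23 ± 0.25, adjusted p = 1.4e-08). Apoc1 rose 13.8-fold and Apoh 2.05-fold. Apoa2, in contrast, read 2.51, 2.54 and 2.65 in NoRX and 2.50 and 2.46 in DIFF (-0.09 ± 0.06, adjusted p = 0.214). Apob, the scaffold of very low density lipoprotein, read 4.05, 3.75 and 3.95 in NoRX and 2.27 and 2.44 in DIFF and so fell 2.95-fold (-1.56 ± 0.10, adjusted p = 4.15e-07). The phospholipid transfer protein Pltp fell 2.36-fold, a call lost with normexp (-0.74).

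Fibrinogen is built from an alpha, a beta and a gamma chain. Fgb and Fgg were below background on all NoRX arrays and rose at least 20.2-fold and at least 15.7-fold (adjusted p = 1.51e-08 and 1.59e-05). Fga reached -3.54 and -3.90 in DIFF, a rise of at least 2.7-fold (adjusted p = 0.0223) that was no longer called without DIFF replicate 1 (1.56), DIFF replicate 2 (1.93) or NoRX replicate 3 (1.65). Prothrombin (F2) read -0.95, -0.63 and -1.03 in NoRX and 1.37 and 1.36 in DIFF (2.23 ± 0.10, adjusted p = 2.74e-08). Of the 22 tested genes of coagulation and fibrinolysis 9 rose, all at least 2-fold, among them F12, Kng1, Serpind1 and the plasmin inhibitor Serpinf2, and 4 fell by smaller amounts. The genes that fell were tissue factor (F3, -0.75 ± 0.05), the urokinase receptor Plaur (-0.57 ± 0.03), the tissue factor pathway inhibitor Tfpi (-0.31 ± 0.04) and Proc, protein C (-0.40 ± 0.07). Proc and Tfpi were not called with arrays centred on their medians (-0.24 and -0.14) or with normexp (-0.393 and -0.385). Proc also lost its call with the all-spot percentile (-0.54) and with slide row as a block (-0.31). Antithrombin, Serpinc1, read between -3.11 and -2.88 on all 5 arrays and was not called (0.16 ± 0.15, adjusted p = 0.37). The list had 8 higher and 2 lower with normexp.

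The alpha-1-antitrypsins, inhibitors of neutrophil elastase, are encoded by close relatives that can share probe signal. All 4 measured paralogs rose by similar amounts: 3.10 ± 0.23 for Serpina1a, 3.22 ± 0.16 for Serpina1c, 3.09 ± 0.19 for Serpina1d and 3.26 ± 0.16 for Serpina1e. Their probes were all well above background in NoRX, with Serpina1a at -0.92, -0.15 and -0.78 before and 2.66 and 2.31 after the medium.

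Among 18 tested genes of complement and the acute phase 10 rose and 3 fell, against 5 and 3 with the all-spot percentile. Lipocalin 2, an iron-siderophore binder of innate immunity, read 0.40, 1.34 and 1.06 in NoRX and 7.72 and 7.65 in DIFF, a rise of 108-fold (6.75 ± 0.21, adjusted p = 2.14e-09). Complement C3 rose 3.03-fold and the lipopolysaccharide-binding protein Lbp 3.55-fold. The serum amyloids were unlike each other: Saa3 rose at least 9.98-fold, Saa2 was not well above background on any of the 5 arrays, and Saa1 read -2.03, -2.20 and -1.90 in NoRX and -1.69 and -1.53 in DIFF. The small rise of Saa1 (0.43 ± 0.16, adjusted p = 0.0374) was not called without DIFF replicate 1 (0.51), DIFF replicate 2 (0.35), NoRX replicate 1 (0.44) or NoRX replicate 2 (0.35). Il1rn, the antagonist of the interleukin 1 receptor, fell 7.12-fold (-2.83 ± 0.16, adjusted p = 1.9e-07), and complement C4b fell 2.20-fold.

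**Figure D3:**
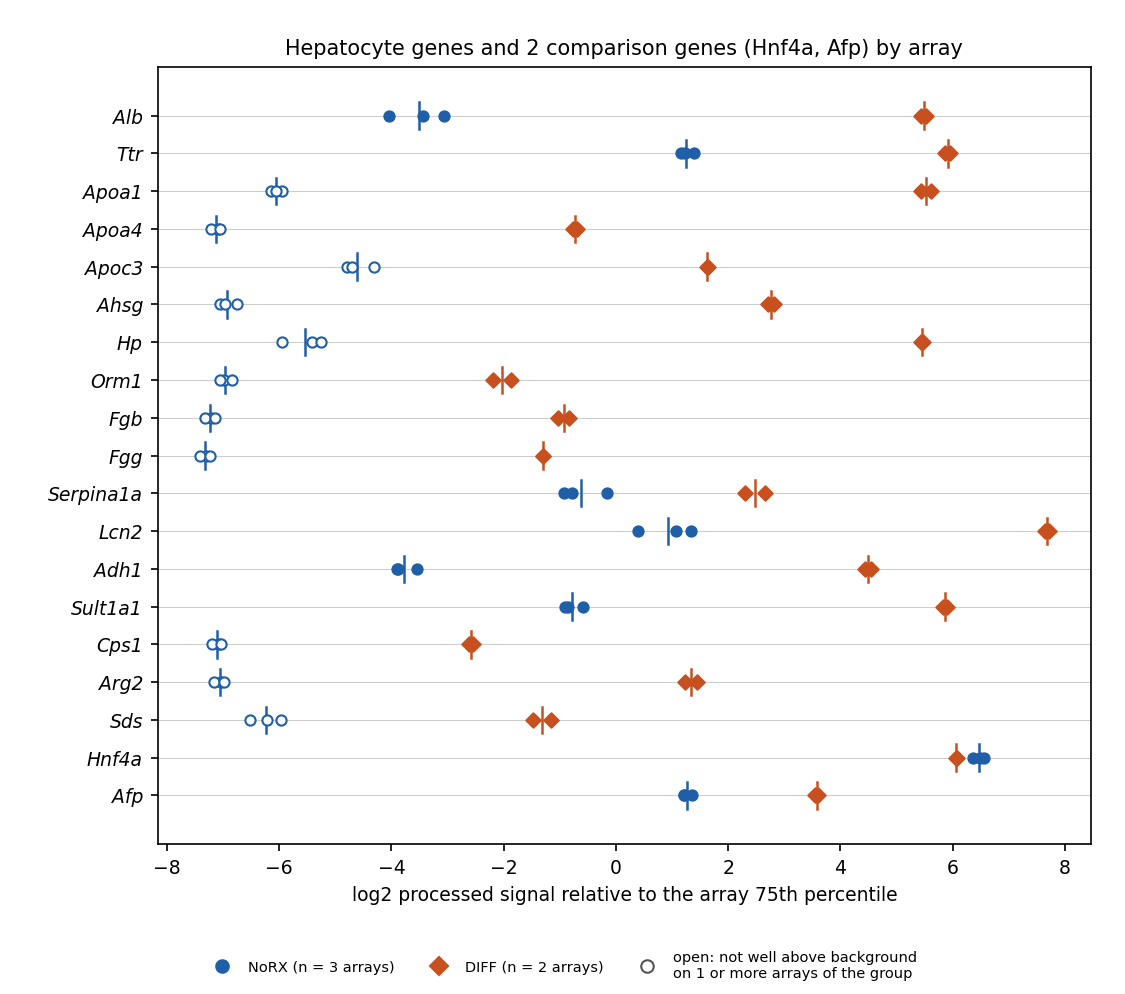
Log2 processed signal relative to the array's 75th percentile (x axis) of 19 genes, 1 point per array, for NoRX (circles, n = 3) and DIFF (diamonds, n = 2), with a bar at each group mean and open symbols where the gene was not well above background on 1 or more arrays of the group. The genes were picked and do not stand for their lists. Members that fell, such as Apob, or were not called, such as Gc, Apoa2, Serpinc1, Cyp2e1 and Asl, are not drawn. For the secreted proteins and enzymes drawn, the DIFF arrays lie far to the right of the NoRX arrays, with Alb at 5.54 and 5.45 against -3.05 to -4.05. Hnf4a lies slightly to the left.

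Enzymes of drug metabolism changed in both directions. Of 37 tested cytochrome P450 and phase I genes 16 rose, 13 of them at least 2-fold, and 11 fell. The share that rose was 43.2%, against 31.3% of all tested genes. The share that fell, 29.7%, lies close to the 27.5% of all tested genes. With normexp and with the all-spot percentile 10 were higher and 6 lower, and with slide row as a block 14 and 7. Adh1, the class I alcohol dehydrogenase, read -3.88, -3.54 and -3.91 in NoRX and 4.54 and 4.43 in DIFF (8.26 ± 0.12, 307-fold, adjusted p = 2.46e-11). Cyp39a1, an oxysterol hydroxylase, rose 14.8-fold (3.89 ± 0.06), the soluble epoxide hydrolase Ephx2 6.87-fold (2.78 ± 0.10) and Cyp2b10, a target of the receptor CAR, 6.70-fold (2.74 ± 0.13). Cyp1b1 went the other way: it read -1.28, -1.23 and -1.06 in NoRX and -4.23 and -4.81 in DIFF, where 1 of 2 arrays was well above background (-3.33 ± 0.15, adjusted p = 2.66e-08). Cyp2c65 fell 3.11-fold, Cyp2c29 2.44-fold and Cyp2d26 2.27-fold. Cyp2e1, a marker of mature hepatocytes that metabolises ethanol, read -4.42, -4.17 and -4.41 in NoRX and -4.41 and -4.90 in DIFF and was not called (-0.33 ± 0.25, adjusted p = 0.298). Cyp7a1 and Tdo2, further markers of mature hepatocytes, did not pass the filter on low signals, and the probe of Cyp3a11 was left out for the patch.

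Of 26 tested phase II and transporter genes 13 rose and 6 fell. Lower were 2 members with median centring, normexp and the all-spot percentile, beside 15, 12 and 10 higher, and with slide row as a block 13 were higher and 3 lower. The sulfotransferase Sult1a1 read -0.58, -0.91 and -0.86 in NoRX and 5.90 and 5.83 in DIFF, a rise of 100.2-fold (6.65 ± 0.14, adjusted p = 2.13e-10). Its probe lies in the rows of the patch, where its DIFF arrays differ by -0.07 (replicate 2 minus replicate 1). The glucuronosyltransferases Ugt2b36 and Ugt2b35 rose 8.53-fold and 7.39-fold, and Ugt2b5 at least 10.4-fold. Abcg5, a subunit of the sterol exporter of the canalicular membrane, rose at least 11.6-fold (adjusted p = 8.75e-08), and the exporter gene Abcb1b rose 4.38-fold. The bile acid importer Slc10a1 (NTCP) was bright on every array and read 8.99, 8.96 and 9.02 in NoRX and 8.79 and 8.68 in DIFF. Its decrease of 1.19-fold (-0.25 ± 0.05, adjusted p = 0.00192) was not called with arrays centred on their medians (-0.09) or with slide row as a block (-0.14). The call was also lost with normexp (-0.30) and with the all-spot percentile (-0.39). Sult2b1 fell 2.70-fold and the exporter Abcg2 1.52-fold.

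Of 25 tested genes of the urea cycle, amino acid breakdown and gluconeogenesis 15 rose and 4 fell (15 and 2 with median centring). Cps1, which makes carbamoyl phosphate for the urea cycle, was below background in NoRX and read -2.62 and -2.54 in DIFF, a rise of at least 6.44-fold (adjusted p = 1.72e-05). Ass1, the next synthetase of the cycle, rose 1.51-fold from 5.34, 5.40 and 5.42 to 6.01 and 5.95, and the lyase Asl was not called (0.02 ± 0.05, adjusted p = 0.751). Arg1 and Otc did not pass the filter on low signals. Arg2, the mitochondrial arginase found mainly outside the liver, was below background in NoRX and rose at least 98.0-fold (adjusted p = 1.35e-09). Serine dehydratase, Sds, rose at least 15.5-fold, alanine aminotransferase, Gpt, 5.39-fold and histidase, Hal, 5.08-fold. Gluconeogenic genes were among those that fell: pyruvate carboxylase, Pcx, by 1.59-fold and Fbp2, the muscle fructose bisphosphatase, by 7.26-fold (-2.86 ± 0.08, adjusted p = 7.44e-10).

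Of 27 tested liver-enriched transcription factors 11 rose and 11 fell, 1 and 3 of them at least 2-fold (40.7% each, against 31.3% and 27.5% of all tested genes). That balance depends on the scaling, with 13 higher and 4 lower under median centring, 6 and 6 under normexp and 6 and 8 under the all-spot percentile. Hnf4a read 6.56, 6.49 and 6.37 in NoRX and 6.07 and 6.07 in DIFF, a decrease of 1.33-fold (-0.41 ± 0.06, adjusted p = 0.000159), and Foxa2 fell 1.15-fold (-0.20 ± 0.06). With arrays centred on their medians Hnf4a (-0.24) and Foxa2 (-0.03) were not called, and Foxa2 was not called without DIFF replicate 1 (-0.17). Foxa2 also lost its call with normexp (-0.32), the all-spot percentile (-0.33) and slide row as a block (-0.21). Cebpa rose from between -0.81 and -0.78 to 0.20 and -0.01 (0.88 ± 0.08, adjusted p = 6.21e-06), and Cebpb (0.85 ± 0.04), Cebpd (0.83 ± 0.05), Hhex (0.87 ± 0.07) and Foxa1 (0.82 ± 0.06) rose by like amounts. Klf15, a factor of fasting metabolism that glucocorticoids induce, was below background in NoRX and rose at least 89.8-fold (adjusted p = 8.74e-09). The factors that fell most were Gata4 (-1.41 ± 0.06), Creb3l3 (-1.35 ± 0.04) and the CAR gene Nr1i3 (-1.11 ± 0.10). The CAR target Cyp2b10 thus rose while Nr1i3 fell; with the mean of all probes of the gene Nr1i3 was not called (-0.45).

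Fetal and progenitor markers were mixed. Alpha-fetoprotein, the main plasma protein of the fetal liver, read 1.21, 1.37 and 1.21 in NoRX and 3.61 and 3.56 in DIFF, a rise of 5.0-fold (2.32 ± 0.06, adjusted p = 6.52e-10). Of 16 hepatoblast and fetal liver genes 10 were tested, of which 3 rose and 4 fell (1 and 3 with the all-spot percentile). The shares of 30% and 40% compare with 31.3% and 27.5% of all tested genes, in a list of only 10. The hepatoblast markers Dlk1, Igf2 and Gpc3 did not pass the filter on low signals. Cdh17 fell 3.14-fold and Cpn1, a carboxypeptidase subunit made by the liver, 14.7-fold.

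Among 29 tested biliary and progenitor markers 7 rose and 13 fell, against 4 and 9 with normexp and 4 and 11 with the all-spot percentile. Sox9, a transcription factor of bile duct cells, read 1.29, 1.33 and 1.31 in NoRX and -0.21 and -0.19 in DIFF (-1.51 ± 0.05, adjusted p = 5.72e-09). Epcam fell 3.27-fold from -0.92, -0.67 and -0.69 to -2.42 and -2.52, and osteopontin, Spp1, fell 4.11-fold to a level well above background on 1 DIFF array and was not called with normexp (-0.52). Prom1, a marker of liver progenitors, fell 7.23-fold (-2.85 ± 0.13) and was likewise well above background on 1 DIFF array. The Notch ligand Jag1 fell 3.26-fold and the epithelial factor Ehf 4.94-fold. Other markers of the same cells rose. Keratin 7 read 3.03, 3.09 and 3.04 in NoRX and 4.92 and 4.79 in DIFF (1.81 ± 0.05, adjusted p = 1.78e-09), the water channel Aqp1 rose 6.65-fold (2.73 ± 0.12) and Cd24a 2.11-fold (1.08 ± 0.06). Krt19 read 8.91, 8.98 and 9.03 in NoRX and 8.60 and 8.54 in DIFF, a decrease of 1.32-fold.

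The genes that glucocorticoids induce rose as a group. Of 30 tested genes of the glucocorticoid receptor and its targets 24 rose, 16 of them at least 2-fold, and 3 fell, with a median difference of 1.23. Fkbp5, a chaperone of the receptor that its ligand induces, read 3.09, 3.09 and 3.04 in NoRX and 7.06 and 6.99 in DIFF, a rise of 15.5-fold (3.96 ± 0.05, adjusted p = 1.04e-11). Tsc22d3, known as GILZ, read 1.90 on each NoRX array and 5.42 and 5.35 in DIFF and rose 11.2-fold (3.48 ± 0.04, adjusted p = 1.04e-11). The arrays of each group lie close together for both genes, and the groups are far apart. The kinase gene Sgk1 rose 6.45-fold (2.69 ± 0.06), Per1 4.52-fold (2.18 ± 0.05), the inhibitor of NF-kB Nfkbia 2.64-fold (1.40 ± 0.04) and Klf9 2.29-fold (1.2 ± 0.05). Zbtb16, or PLZF, was below background in NoRX, read 2.81 and 2.67 in DIFF and rose at least 249.9-fold (adjusted p = 9.81e-08). Hif3a rose 40.8-fold (5.35 ± 0.13) and Igfbp1 at least 4.11-fold. The receptor gene Nr3c1 itself differed by 0.22. The genes that fell were the mineralocorticoid receptor Nr3c2 (-1.25 ± 0.15), Angptl4 (-0.29 ± 0.05) and Hsd11b2, which inactivates corticosterone and was below background on both DIFF arrays, at -7.61 and -4.83 (at least 1.77-fold lower, adjusted p = 0.00948). With normexp 18 members were higher and 1 lower, and Nr3c2 (-0.57) and Hsd11b2 (-0.16) were not called, and with slide row as a block 23 were higher and 1 lower.

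The start windows of Sgk1 and of the amylase gene Amy1 are shown since both genes rose and both hold a match to a pattern of the glucocorticoid receptor's consensus. The outer parts of the Sgk1 match are a palindrome, and those of the Amy1 match are not an exact one. The windows run from 250 bases before to 50 bases after a start, in the direction of transcription, from RefSeq on GRCm38.p6. The pattern searched on both strands was GNACA, then any 3 bases, then TGTNC, and the capitals mark its match. Sgk1 (chr10:21993640-21993939, plus strand; 1 of 6 windows of the gene) holds it 188 to 176 bases before that start, and Amy1 (chr3:113577701-113578000, minus strand; 1 of 2 windows) 216 to 204 bases before.
Sgk1: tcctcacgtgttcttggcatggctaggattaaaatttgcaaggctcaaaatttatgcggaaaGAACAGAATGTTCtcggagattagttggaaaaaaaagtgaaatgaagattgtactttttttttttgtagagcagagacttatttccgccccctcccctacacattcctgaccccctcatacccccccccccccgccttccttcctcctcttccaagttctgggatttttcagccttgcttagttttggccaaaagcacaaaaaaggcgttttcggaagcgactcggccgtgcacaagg
Amy1: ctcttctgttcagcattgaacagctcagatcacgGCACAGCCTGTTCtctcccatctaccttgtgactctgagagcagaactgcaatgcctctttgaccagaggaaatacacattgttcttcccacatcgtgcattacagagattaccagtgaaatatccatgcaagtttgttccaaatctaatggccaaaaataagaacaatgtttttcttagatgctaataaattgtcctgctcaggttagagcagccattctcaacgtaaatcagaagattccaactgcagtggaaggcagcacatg
The pattern occurs in 0.475% of all 32851 windows, in 0.421% of those of tested genes, in 8 of 621 windows (1.29%) of genes at least 2-fold higher in DIFF and in 3 of 964 (0.311%) of genes at least 2-fold lower. Among the genes named here its letters were also found in the windows of Epcam, Mt1, Serpinf2 and Txnip, and Epcam fell. A match is a description of the letters and not evidence of binding.

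Clock genes, several of which glucocorticoids can set, changed in both directions, with 8 of 17 tested higher and 5 lower. That is 47.1% and 29.4%, against 31.3% and 27.5% of all tested genes. The counts were 4 and 2 with normexp, 4 and 4 with the all-spot percentile, 5 and 5 with slide row as a block and 6 and 8 with the percentile over spots well above background on all arrays. Besides Per1, Per2 rose 2.38-fold and Arntl, which encodes BMAL1, 2.25-fold (1.17 ± 0.05). Dbp, an output gene of the clock, read 4.95, 4.98 and 4.98 in NoRX and 3.72 and 3.71 in DIFF (-1.26 ± 0.04, adjusted p = 1.38e-09). The repressor Nr1d1 fell 1.44-fold and Clock was not called (-0.15 ± 0.06, adjusted p = 0.0623). No sampling time is given for either group.

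Genes of protein folding in the endoplasmic reticulum rose nearly throughout. Of 25 tested chaperones and folding factors 23 rose and 1 fell, with a median difference of 0.57, against 31.3% higher and a median of 0.02 over all genes. Hspa5, the chaperone BiP, read 6.79, 6.74 and 6.72 in NoRX and 7.52 and 7.61 in DIFF (0.81 ± 0.04, adjusted p = 2.66e-08). Calreticulin rose 2.17-fold (Calr, 1.12 ± 0.04), Sdf2l1 2.91-fold, Herpud1 2.85-fold, Creld2 2.52-fold, Manf 2.25-fold and the disulfide isomerase Pdia4 2.25-fold. Ero1a, the oxidase whose gene hypoxia induces, was the member that fell (-0.51 ± 0.05, adjusted p = 1.71e-05), while its relative Ero1b rose 2.59-fold. With the all-spot percentile 13 members were higher and with normexp 15, with 1 lower under each.

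Targets of the transcription factor ATF4 and genes of amino acid supply rose in 21 of 32 cases and fell in 3. Slc1a5, a glutamine transporter, read 0.88, 0.83 and 0.98 in NoRX and 3.31 and 3.26 in DIFF, a rise of 5.23-fold (2.39 ± 0.05, adjusted p = 1.92e-10). The large amino acid transporter Slc7a5 rose 2.29-fold and the serine synthesis gene Psat1 2.07-fold. Changes of the best known targets were smaller: Atf4 differed by 0.32 ± 0.03, Asns by 0.33 ± 0.05 and Ddit3, which encodes CHOP, by 0.64 ± 0.06, and Trib3 was not called (-0.06 ± 0.07, adjusted p = 0.463). With normexp 10 members were higher and 1 lower. The all-spot percentile left 8 higher and 1 lower, and Atf4 (0.19) and Asns (0.20) were not called.

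Ligands of the EGF receptor, ERK targets and their feedback inhibitors fell as a group. Of 35 tested genes 25 fell, 14 of them at least 2-fold, and 6 rose, with a median difference of -0.87 against 0.02 over all genes. Amphiregulin read 5.19, 4.86 and 4.86 in NoRX and 2.52 and 3.07 in DIFF (Areg, -2.18 ± 0.15, adjusted p = 6.06e-07). Betacellulin, Btc, read 1.53, 1.56 and 1.56 in NoRX and -0.58 and -0.48 in DIFF (-2.08 ± 0.06, adjusted p = 9.87e-10). The DIFF arrays lie below every NoRX array for both ligands. Epiregulin, Ereg, fell 2.27-fold and the receptor Egfr 1.90-fold. Among the feedback genes the phosphatase Dusp4 fell 3.68-fold (-1.88 ± 0.08), Spry4 2.97-fold (-1.57 ± 0.15) and Dusp6 1.22-fold (-0.28 ± 0.04). Phlda1 fell 3.03-fold and the AP-1 subunit Jun 2.89-fold (-1.53 ± 0.05). Not all immediate early genes followed. Egr2 rose 3.36-fold (1.75 ± 0.13), Egr1 1.49-fold (0.57 ± 0.06) and Fos 1.41-fold (0.50 ± 0.06). Lrig1, which marks EGF receptors for breakdown, rose 1.83-fold (0.87 ± 0.05). With arrays centred on their medians Dusp6 was not called (-0.12), and with the all-spot percentile 21 members were lower and 3 higher. With normexp 16 were lower and 3 higher, with Spry4 (-0.61) and Fos (0.41) not called.

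Genes of TGF-beta signalling fell in 16 of 27 tested cases and rose in 5. Lower and higher were 13 and 3 with normexp, 15 and 2 with the all-spot percentile, 16 and 3 with the percentile over spots well above background on all arrays, and 15 and 3 with slide row as a block or without DIFF replicate 2. Of the targets, Ltbp1, which tethers latent TGF-beta to the matrix, fell 7.49-fold (-2.90 ± 0.12, adjusted p = 1.34e-08), the activin subunit Inhba 2.79-fold, the inhibitor Smad7 2.34-fold, Pmepa1 2.23-fold and Ccn2, or CTGF, 2.04-fold. Snai1, a repressor of epithelial genes, was below background on both DIFF arrays and fell at least 2.35-fold (adjusted p = 1.16e-06), a call lost with normexp (-0.13). The ligand gene Tgfb1 fell 1.69-fold. The receptors differed from each other: Tgfbr3 rose 4.98-fold from -1.38, -1.39 and -1.34 to 0.98 and 0.91 (2.32 ± 0.07, adjusted p = 1.74e-09), Tgfbr1 rose 1.87-fold and Tgfbr2 was not called (0.01 ± 0.04, adjusted p = 0.859). Tgfbi rose at least 4.5-fold against the direction of the list, and was not called with the percentile over all spots (3.68). BMP genes showed 6 higher and 3 lower of 13 tested. There the hepcidin regulator Tmprss6 rose 2.78-fold (1.47 ± 0.06), Id1 1.47-fold and Id2 1.39-fold (not called with normexp, at 0.45 and 0.35), while Bmp4 was not called (0.02 ± 0.05, adjusted p = 0.729). Without DIFF replicate 2 the BMP list had 3 higher and 4 lower, with slide row as a block 3 and 2, with median centring 6 and 0, and with normexp or the all-spot percentile 1 and 0.

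Of the Wnt genes 9 of 28 tested rose and 14 fell (6 and 8 with normexp, 4 and 10 with the all-spot percentile), and the ligands split. As shares the list had 32.1% higher and 50% lower, against 31.3% and 27.5% of all tested genes. Wnt4 read -4.52, -3.86 and -4.11 in NoRX and 4.81 and 4.77 in DIFF, a rise of 498-fold (8.96 ± 0.17, adjusted p = 8.01e-11), which among genes measured on all 5 arrays was exceeded by Alb alone. Wnt10a rose 23-fold from -2.55, -2.63 and -2.52 to 1.96 and 1.95 (4.52 ± 0.09, adjusted p = 8.79e-11). Wnt6, well above background on 1 NoRX array, rose by 3.87 ± 0.53 (adjusted p = 0.000119). Wnt7a fell 3.40-fold and Wnt11 3.23-fold. Rnf43, a target that restrains Wnt receptors, fell 2.39-fold and the receptor gene Fzd4 rose 2.69-fold. Wnt6 was not called with the percentile over all spots (3.74).

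Notch genes were few and mixed, with 5 of 23 tested higher and 7 lower. They numbered 3 and 2 with normexp, 2 and 4 with the all-spot percentile and 5 and 4 with slide row as a block. Notch3 rose 5.21-fold from -3.33, -3.15 and -2.93 to -0.76 and -0.75 (2.38 ± 0.12, adjusted p = 7.32e-08). The target Hes1 fell 1.71-fold (-0.77 ± 0.05) and Notch1 was not called (0.11 ± 0.15, adjusted p = 0.569). In the IGF and growth hormone axis, where 10 of 28 tested genes rose and 7 fell, Socs2 rose 3.91-fold (1.97 ± 0.05) and Igfbp3 fell 4.19-fold (-2.07 ± 0.06). Igf1, which mature hepatocytes secrete, was near background in both groups (-0.02 ± 0.34, adjusted p = 0.958). The axis had 11 higher and 4 lower with median centring, 6 and 5 with normexp and 5 and 5 with the all-spot percentile. YAP and TEAD targets showed 8 higher and 7 lower of 22 (4 and 5 with normexp, 3 and 6 with the all-spot percentile), with Amotl2 up 2.29-fold and Nt5e down 2.94-fold. Of all tested genes 31.3% were higher and 27.5% lower. The shares were 21.7% and 30.4% for Notch, 35.7% and 25% for IGF, and 36.4% and 31.8% for YAP.

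Keratins, which form the intermediate filaments of epithelia, fell in 13 of 17 tested cases and rose in 2. The largest decreases were in keratins of stratified epithelia. Krt79 read 5.65, 5.84 and 5.54 in NoRX and 1.13 and 1.29 in DIFF (-4.46 ± 0.08, 22.1-fold lower, adjusted p = 6.52e-11). Krt78 read 3.07, 3.25 and 3.14 in NoRX and -0.96 and -0.63 in DIFF (-3.94 ± 0.09, 15.4-fold lower, adjusted p = 3.32e-10). Krt14, a keratin of basal cells, fell 5.46-fold (-2.45 ± 0.09). The keratins of simple epithelia changed less: Krt20 fell 1.70-fold, Krt8 1.45-fold and Krt18 1.19-fold. Krt18 was not called with arrays centred on their medians (-0.09), quantile normalization (-0.07), the all-spot percentile (-0.39) or slide row as a block (-0.14). Krt7 and Krt23 (0.99 ± 0.07) were the members that rose.

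Genes of cell junctions fell in 20 of 32 tested cases and rose in 6. Lower and higher numbered 13 and 7 with median centring, 12 and 3 with normexp and 15 and 3 with the all-spot percentile. Among the gap junction genes, Gjb1, the connexin 32 of hepatocytes, fell 2.24-fold from 4.74, 4.78 and 4.74 to 3.57 and 3.62 (-1.16 ± 0.03, adjusted p = 1.19e-09), and Gja1, connexin 43, fell 3.35-fold to a level well above background on 1 DIFF array (not called with normexp, -0.33). Desmoplakin, Dsp, fell 1.90-fold. Cldn2, a claudin that forms cation pores, rose 4.36-fold from 2.30, 2.32 and 2.30 to 4.48 and 4.38 (2.12 ± 0.10, adjusted p = 3.59e-08), Tjp1 rose 1.64-fold and cingulin, Cgn, 1.60-fold. E-cadherin hardly differed: Cdh1 read 5.30, 5.30 and 5.23 in NoRX and 5.14 and 5.15 in DIFF. Its call (-0.13 ± 0.04, adjusted p = 0.0184) turned in sign with arrays centred on their medians (0.04) and was lost without DIFF replicate 1 (-0.12), DIFF replicate 2 (-0.13), NoRX replicate 1 (-0.12) or NoRX replicate 2 (-0.12). The splicing factor of epithelia Esrp1 fell 2.22-fold.

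Of 37 tested genes for collagens, laminins and matrix remodelling 25 fell and 8 rose, against 16 and 3 with normexp and 19 and 3 with the all-spot percentile. Lama3 and Lamb3 encode chains of a laminin by which epithelia attach to the basement membrane. Lama3 read 3.28, 3.19 and 3.03 in NoRX and -0.29 on DIFF replicate 1, while its spot on DIFF replicate 2 was marked as an outlier and has no value. Its difference of -3.46 (11-fold lower) thus rests on 1 DIFF array, and its standard error (0.09) and adjusted p (2.83e-09, limma) hold no spread of DIFF and assume that this array varies like those of the other groups. Lamb3 fell: it read 6.92, 6.92 and 6.80 in NoRX and 5.30 and 5.34 in DIFF (-1.56 ± 0.04, adjusted p = 7.99e-10). The integrin subunits that bind this laminin in hemidesmosomes fell as well, Itga6 by 2.73-fold and Itgb4 by 2.27-fold, both picked out after their values were seen. Laminin chains of other trimers rose, Lamb2 2.20-fold, Lamc1 1.57-fold and Lama5 1.43-fold. Fibronectin, Fn1, rose 1.67-fold from 6.38, 6.35 and 6.43 to 7.13 and 7.13 (0.74 ± 0.05, adjusted p = 2.99e-07). Col1a1, the collagen of fibroblasts and activated stellate cells, was below background on both DIFF arrays and fell at least 5.07-fold, and Timp3 fell at least 4.33-fold. With normexp Col1a1 (-0.82), Timp3 (-0.60) and Lama5 (0.42) were not called.

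**Figure D4:**
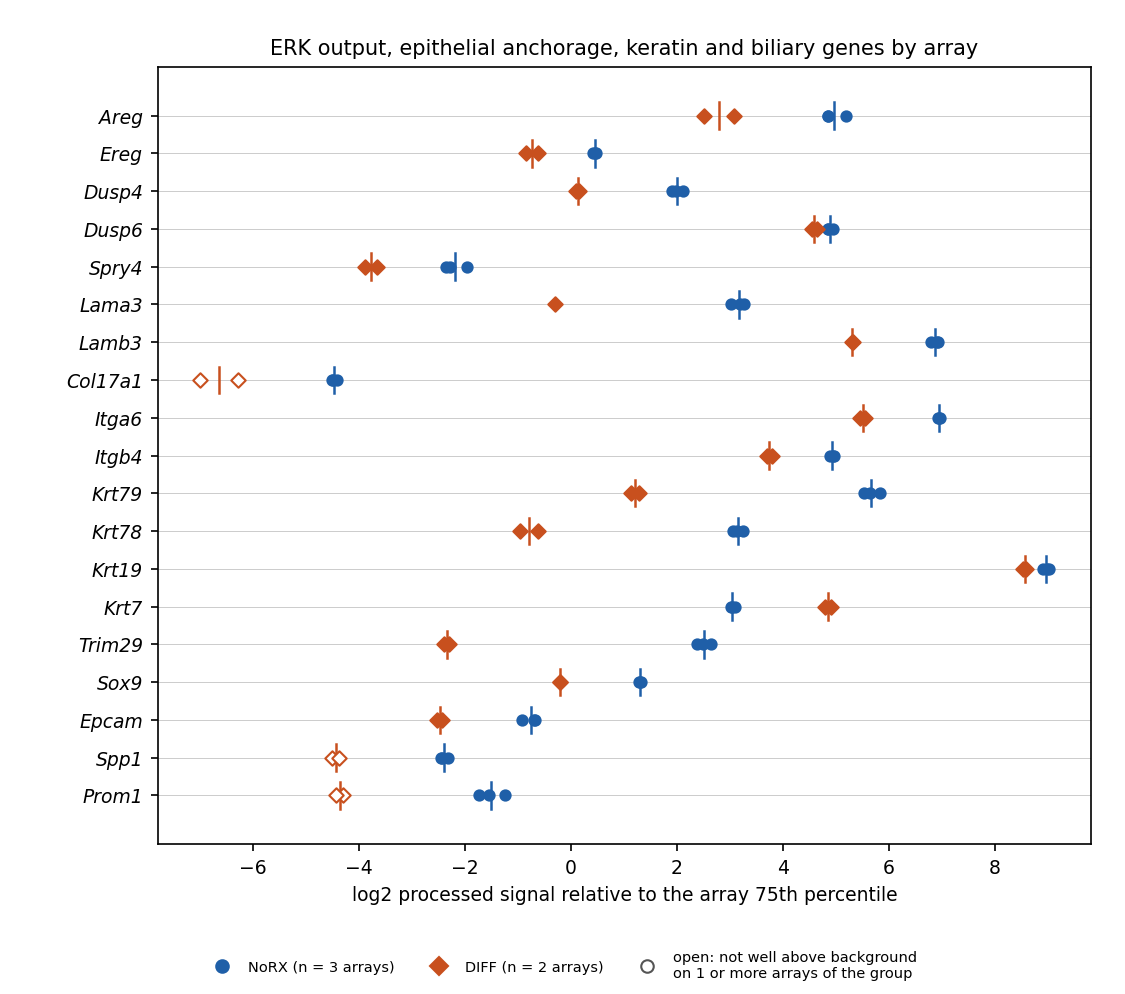
Log2 processed signal relative to the array's 75th percentile (x axis) of 19 genes of ERK output, epithelial anchorage, keratins and biliary cells, 1 point per array, for NoRX (circles, n = 3) and DIFF (diamonds, n = 2, and 1 for Lama3). A bar marks each group mean, except for Lama3 in DIFF, where none is drawn. Symbols are open where the gene was not well above background on 1 or more arrays of the group. The genes were picked, and members of the same lists that rose, such as Egr2, Fos, Aqp1 and Cldn2, are not drawn. The DIFF arrays lie to the left of the NoRX arrays for all genes drawn except Krt7. The gap runs from a wide one for Krt79 (1.13 and 1.29 against 5.54 to 5.84) to a narrow one for Dusp6.

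The cell cycle genes did not move as 1 block. Of 32 tested genes of mitosis and cytokinesis 28 rose, 6 of them at least 2-fold, and 1 fell, with a median difference of 0.76. Ube2c, which drives the exit from mitosis, read 1.07, 1.06 and 1.21 in NoRX and 2.25 and 2.31 in DIFF (1.16 ± 0.07, adjusted p = 1.59e-07). Ccnb1, the mitotic cyclin B1, read -0.99, -1.18 and -1.01 in NoRX and 0.00 and 0.02 in DIFF (1.07 ± 0.13), Ccna2 rose 2.03-fold and Mki67, the gene of the proliferation marker Ki-67, 1.89-fold (0.92 ± 0.13). Kif23 was the member that fell (-0.27 ± 0.06). The count shrank to 9 higher and 0 lower with the all-spot percentile, where Mki67 (0.79) and Ccnb1 (0.94) were not called, and to 17 and 0 with normexp, and it was 30 and 0 with median centring and 25 and 1 without DIFF replicate 2.

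Genes of DNA replication numbered 9 higher and 7 lower of 35 tested, none changed 2-fold, with a median difference of 0.08. These are 25.7% and 20% of the list, against 31.3% and 27.5% of all tested genes. Under median centring 15 were higher and 2 lower, against 2 and 2 under normexp, 1 and 3 under the all-spot percentile and 7 and 3 with slide row as a block. The helicase subunits differed little: Mcm7 by 0.24 ± 0.04, Mcm6 by -0.37 ± 0.07 and Mcm3 by -0.13 ± 0.06 (adjusted p = 0.0772, not called). Rrm2, a subunit of ribonucleotide reductase, rose 1.80-fold. Of 24 tested genes of the G1 phase 12 fell and 6 rose (7 and 2 with normexp, 8 and 2 with the all-spot percentile). Cyclin D1 read 7.11, 7.14 and 7.12 in NoRX and 6.39 and 6.52 in DIFF (Ccnd1, -0.67 ± 0.04, adjusted p = 3.09e-07), Ccnd2 fell 1.84-fold and Ccne1 1.52-fold. Among the inhibitors of cyclin-dependent kinases p27 rose (Cdkn1b, 0.79 ± 0.04) and p21 fell (Cdkn1a, -0.48 ± 0.05). Of the p53 genes 13 of 25 tested rose and 3 fell, by 1.76 ± 0.04 at most (Trp53inp1), and Trp53 (0.02 ± 0.06) and Mdm2 (-0.06 ± 0.04) were not called. Higher and lower p53 genes numbered 15 and 1 with median centring, 5 and 2 with normexp and 3 and 2 with the all-spot percentile.

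Lipid genes showed single large changes in lists that were mixed as a whole. PPAR targets and genes of fatty acid oxidation numbered 37 tested, 15 higher and 13 lower (40.5% and 35.1%, against 31.3% and 27.5% of all tested genes). Cd36, a fatty acid translocase, was below background in NoRX and rose at least 24.6-fold (adjusted p = 2.28e-08). The receptor gene Ppara rose 4.42-fold and the liver fatty acid binding protein Fabp1 5.43-fold, whereas Pparg fell 1.90-fold and the lipid droplet gene Cidec 3.48-fold. Cpt1a, which admits fatty acids to mitochondria, was not called (0.05 ± 0.04, adjusted p = 0.334). In cholesterol and fatty acid synthesis 9 of 34 rose and 9 fell, none rising 2-fold. These are 26.5% each, against 31.3% and 27.5% of all tested genes. Of the synthesis genes, Hsd17b7 fell 2.10-fold and Me1 2.05-fold, while Sqle and Fasn were not called. The synthesis list had 10 higher and 4 lower with median centring, 2 and 4 with normexp, 1 and 5 with the all-spot percentile and 7 and 5 with slide row as a block.

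Glycolysis and hypoxia response genes fell in 23 of 34 tested cases and rose in 5, by small amounts, with a median difference of -0.26. Hexokinase 2 read 5.35, 5.30 and 5.19 in NoRX and 4.26 and 4.32 in DIFF (Hk2, -0.99 ± 0.05, adjusted p = 4.5e-08), carbonic anhydrase 9, Car9, fell 2.27-fold and Pdk1 1.54-fold. Hif1a fell 1.62-fold while Epas1, which encodes HIF-2 alpha, rose 1.65-fold (0.72 ± 0.06). With median centring 10 members were lower and 5 higher, with a median difference of -0.09. Lower and higher were 15 and 3 with normexp, 14 and 3 with the all-spot percentile and 14 and 4 with slide row as a block. Vegfa (-0.21) and the glucose transporter gene Slc2a1 (-0.15) were not called with arrays centred on their medians.

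In the glutathione and antioxidant list 18 of 33 tested genes rose and 11 fell, against 19 and 3 with median centring and 11 and 8 with normexp or the all-spot percentile. The glutathione S-transferases stand out by size. Gsta3 read 1.02, 1.23 and 0.93 in NoRX and 5.75 and 5.68 in DIFF (4.65 ± 0.08, adjusted p = 4.27e-11). Gstm4 rose 7.11-fold, Gstt1 6.79-fold, Gstm3 5.92-fold and Gstm2 5.75-fold. The Gstm genes are close relatives and can share probe signal. Gclc, the catalytic subunit for glutathione synthesis, rose 4.35-fold (2.12 ± 0.06), while its partner Gclm was not called (0.12 ± 0.06, adjusted p = 0.092). Txnip, an inhibitor of thioredoxin and of glucose uptake, read -2.52, -2.57 and -3.02 in NoRX and 1.86 and 1.78 in DIFF, a rise of 23-fold (4.52 ± 0.13, adjusted p = 1.17e-09). Nqo1, a standard NRF2 target, was not well above background on any of the 5 arrays, and Hmox1 differed by 0.23 ± 0.07, which was not called without DIFF replicate 1 (0.24), DIFF replicate 2 (0.22) or NoRX replicate 3 (0.18).

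Interferon response genes were 11 higher and 10 lower of 35 tested. These shares, 31.4% and 28.6%, lie close to the 31.3% and 27.5% of all tested genes. The counts were 14 and 5 with median centring, 2 and 5 with normexp, 1 and 5 with the all-spot percentile, 8 and 6 with slide row as a block and 11 and 6 without DIFF replicate 2. Ifit3 read 0.16, 0.64 and 0.85 in NoRX and -2.14 and -1.63 in DIFF (-2.44 ± 0.19, adjusted p = 1.73e-06) and Oasl1 fell 3.46-fold, while the immunoproteasome subunits Psmb9 (2.59-fold) and Psmb8 (2.24-fold) rose, Psmb8 not being called with normexp (0.76). Of 23 tested chemokine, cytokine and NF-kB genes 14 fell and 4 rose, against 8 and 2 with normexp, 12 and 2 with the all-spot percentile and 10 and 6 with median centring. Vcam1 fell 3.91-fold (-1.97 ± 0.11), Csf2 3.79-fold and Cxcl1 2.22-fold (not called with normexp, -0.57), and the interleukin 6 receptor gene Il6ra rose 5.60-fold from 0.80, 0.60 and 0.61 to 3.18 and 3.14 (2.49 ± 0.06, adjusted p = 6.61e-10). Of 13 tested metallothionein and zinc transporter genes 8 rose and 1 fell, against 4 and 1 with normexp, 2 and 1 with the all-spot percentile and 8 and 2 with median centring. Mt2 rose 1.93-fold (0.95 ± 0.07) and the zinc importer Slc39a14, which interleukin 6 induces in liver, 2.50-fold (1.32 ± 0.05).

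Genes of the gut and pancreas were in part well above background in untreated BMEL cells, and 16 of 27 tested fell while 4 rose. Fabp2, the intestinal fatty acid binding protein, read 3.69, 3.82 and 3.63 in NoRX and -0.45 and -0.31 in DIFF (-4.09 ± 0.06, 17-fold lower, adjusted p = 3.19e-11). The Clca genes, which encode secreted proteins of mucous epithelia, fell 20.1-fold (Clca3b), 14.5-fold (Clca4a) and 12.9-fold (Clca4b), and the trypsinogens Prss1 and Prss2 5.54-fold and 5.93-fold. Cdx2, the intestinal master regulator, fell 2.10-fold. The genes that rose include the amylases and a trefoil factor. Tff3 read 2.00, 1.77 and 1.5 in NoRX and 7.47 and 7.40 in DIFF (5.68 ± 0.12, 51.2-fold, adjusted p = 1.54e-10). Amy2a5 rose at least 332.5-fold and Amy1 at least 147-fold, both from below background on all NoRX arrays (adjusted p = 4.84e-10 and 2.11e-08). Muc13 rose 4.54-fold. The amylases are close relatives and can share probe signal, as can the trypsinogens and Clca4a with Clca4b.

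The remaining genes with the highest differences belong to no list. Fam20a, a pseudokinase of the secretory pathway, read -2.43, -2.41 and -2.68 in NoRX and 4.36 and 4.29 in DIFF (6.83 ± 0.09, 114-fold, adjusted p = 2.46e-11). Bst1, an ectoenzyme that makes cyclic ADP-ribose, rose 52.5-fold, guanine deaminase, Gda, 51-fold, the G protein regulator Rgs2 48-fold and the creatine transporter Slc16a12 32.4-fold. Of the genes that fell most, Add2, the beta adducin of the membrane skeleton, read 3.31, 3.39 and 3.30 in NoRX and -2.10 and -1.79 in DIFF (-5.28 ± 0.08, 38.9-fold lower, adjusted p = 3.19e-11). Trim29, a protein of stratified epithelia, fell 28.9-fold, the Rac exchange factor Prex1 26.2-fold, the peptide hormone gene Uts2 23.2-fold, the mannose receptor Mrc1 19.4-fold, the water channel Aqp8 15.4-fold and the pseudogene Cyp2d37-ps 37.3-fold. Lypd3, a GPI-anchored protein of epithelial adhesion, read 1.40, 1.66 and 1.48 in NoRX and was below background on both DIFF arrays, a decrease of at least 78.0-fold (adjusted p = 2.75e-09). Chrna1, a subunit of the muscle acetylcholine receptor, fell at least 41.3-fold and the cGMP-dependent kinase Prkg1 at least 28.4-fold. In all, 98 genes rose and 158 fell with only a bound.

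Markers of other cell types were measured alongside, and their part in the results above was not tested. For macrophages and leukocytes, 5 of 11 markers were tested, 5 did not pass the filter on low signals and 1 had no matched probe. The summed signal of the tested markers, in multiples of the array's 75th percentile, was 15 to 16.5 in NoRX and 11.6 and 11.7 in DIFF. Ptprc, Adgre1 and Lyz2 did not pass the filter on low signals, Csf1r fell 1.62-fold and Itgam 1.38-fold, and Cd52 rose at least 15-fold. The mannose receptor gene Mrc1, which fell 19.4-fold, is in none of these lists and enters none of their sums. For endothelium (6 of 8 tested) the sum was 10.5 to 12.7 in NoRX and 9.94 and 10.1 in DIFF, with Kdr at 3.31, 3.34 and 3.59 against 3.19 and 3.23 and Lyve1 higher by 3.71 ± 0.33 (adjusted p = 5.5e-06). For stellate cells and fibroblasts (6 of 10 tested) it was 0.672 to 0.719 in NoRX and 0.345 and 0.284 in DIFF, with Pdgfra at least 3.46-fold lower, a call lost with normexp (-0.53). Erythroid markers (2 of 7 tested) summed to 0.597 to 0.811 and to 0.894 and 0.956, and muscle markers (1 of 6) to 5.15 to 5.91 and to 3.01 and 5.48. Neural markers (4 of 6) summed to 44.3 to 47 and to 18.7 and 19.6. Of these 4 neural markers 2 rose and 2 fell, 1 each by at least 2-fold, and Nes fell 4.08-fold. The lower neural sum therefore does not describe every member.

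**Figure D5:**
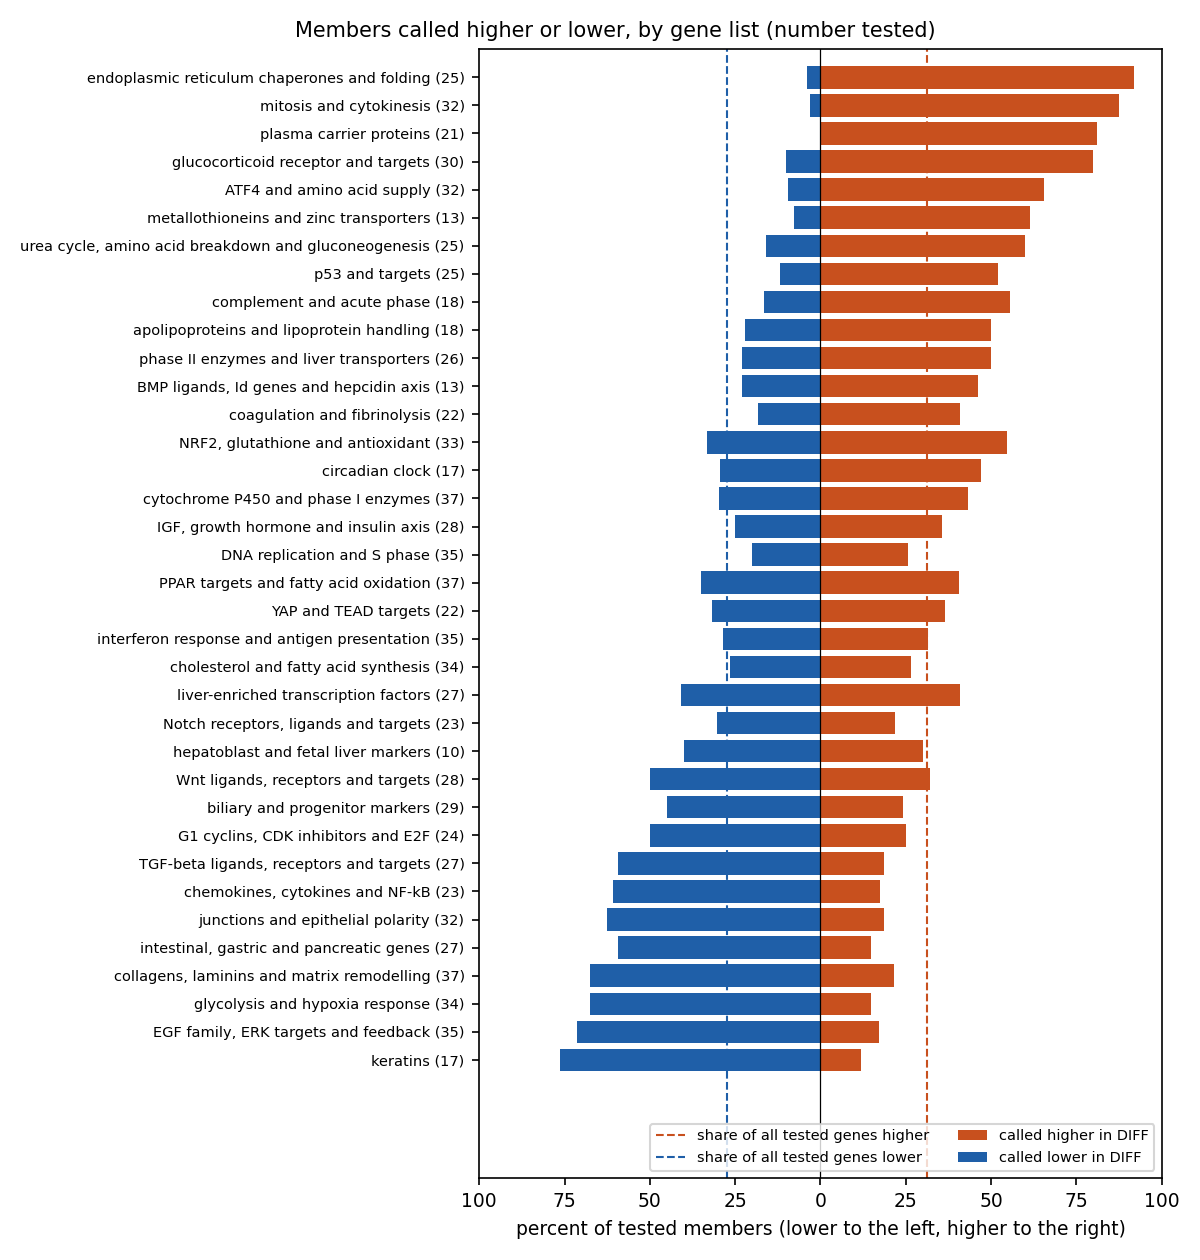
Percent of the tested members of each list of 10 or more tested genes that were called higher in DIFF (to the right) or lower (to the left), with the number tested in brackets, under the scaling as reported, and dashed lines at the shares of all 13853 tested genes (31.3% higher, 27.5% lower). Endoplasmic reticulum chaperones (23 of 25), mitosis (28 of 32), plasma carriers (17 of 21) and glucocorticoid targets (24 of 30) extend furthest to the right, and keratins (13 of 17) and ERK targets (25 of 35) furthest to the left.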

How the data were processed

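RNA of BMEL cells was hybridised to 1-colour Agilent arrays, and the authors deposited spot intensities made with Feature Extraction 11.0.1.1 (submitters' processing notes). Per the file headers these are processed signals, a linear intensity with background subtracted, and no scaling between arrays was recorded. The array grid was built on mm9, per the file headers. The number of arrays limits the precision.

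RefSeq accessions of GRCm38.p6 named 27235 of 55681 non-control probes, for 20660 genes. Outlier spots, and 939 probes in rows 1 to 30 whose DIFF arrays differed by over 4-fold, were left out. Log2 signals were taken minus each array's 75th percentile outside those rows. The brightest probe stood for its gene, and genes well above background on at least 2 of 8 arrays entered the fit in limma 3.58.1, run in R 4.3.3 (lmFit with group weights, eBayes with a trend, 1 fit over 8 arrays, two-sided, Benjamini-Hochberg, threshold 0.05). The group weights, planned because the DIFF arrays seemed more variable, were 1.01, 1 and 0.987, since that spread came from the scaling. A bound sets the brighter group's mean against, per array of the other group, the higher of the gene's signal and the lowest signal well above background. The scripts were tested on simulated data. Same-numbered arrays did not deviate together (correlations -0.045 and 0.013).

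Genes were named by a rule: the 12 highest and 12 lowest differences among genes measured on all 5 arrays without overlap, up to 8 bounds per direction, and of each of 43 lists the first 5 members and up to 6 called members per direction. Clone and predicted names were skipped, not every named gene is described, and some are not reported here. The members, lists and rules were chosen with earlier results of these data known. The alternatives tried were other scalings, background corrections, filters, weights and blocks, and leaving out each array. Figures were drawn with matplotlib 3.10.9.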

Additional observations from a re-analysis of the deposited data

Results flagged for a closer look

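Of 27903 probes without a gene match, which enter none of the counts above, 11647 passed the filter on low signals and 1474 were higher and 1720 lower in DIFF by limma. Among them 96 were well above background on both DIFF arrays and on no NoRX array, which is a signal in data outside the comparison of named genes. The reverse pattern, well above background on all NoRX arrays and on no DIFF array, was met by 176 such probes. Groups of 2 and 3 arrays are too small for a check on single outlying arrays.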

How the results depend on the processing

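With 2 DIFF arrays, the calls rest on a spread pooled over all 8 arrays, and signals near background are the least certain. As reported, 4332 genes were higher and 3811 lower in DIFF. The higher and lower counts were 1312 and 1744 with normexp (on the median signal, since the files used here hold no mean signal), 5307 and 2086 with median centring, 927 and 2226 with the percentile over all spots, and 2838 and 2732 with slide row as a block. The last setting rests on the CM arrays alone for the row effect. Normexp, the percentile over all spots and the percentile over spots well above background on all arrays were added after the data were seen. The patch settings were planned, with earlier results of these data known. The other scalings, filters and weights kept both counts within 1.5 times. The deposited series table holds the same processed signal and gave the same counts, so it is no separate check. At least 2-fold higher were 407 genes (percentile over all spots) to 932 (median centring), and at least 2-fold lower 490 (normexp) to 989. Leaving out 1 array gave 3686 to 4375 higher and 3303 to 3799 lower, and averaging the DIFF arrays to 1 sample gave 3688 and 3265. The replicate numbers share no stated origin; with a replicate block 4109 genes were higher and 3611 lower.

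Of 491 named genes, 18 changed sign under at least 1 setting and 187 lost their call or changed sign. Calls were lost for 133 with normexp, 142 with the percentile over all spots, 60 with slide row as a block and 47 with median centring. The sign turned with normexp for Acacb (0.18), Cdk6 (0.024), Cldn4 (0.064), Col17a1 (0.11), Dll4 (0.33), Dsc2 (0.27), Maff (-0.015), Nqo1 (0.46), Per3 (0.069), Slc27a5 (0.31) and Tcf7 (0.25). It turned with slide row as a block for Ccn1 (0.024) and Igfbp7 (0.015), with median centring for Cdh1 (0.041) and Slc6a9 (0.0087), without leaving out patch probes for Hmga2 (0.61), with the percentile over all spots for Maff (-0.0074), with the mean of all probes for Mdk (-0.12) and with all patch rows left out for Mtf1 (-0.16). The cause was not tested. An alternative with gene names from the scanner files was not run, since the files used here hold no such column.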
